A study of Mus musculus with 2 samples.

Results

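The genes described here are 10 imprinted genes, *Igf2*, *H19*, *Dlk1*, *Meg3*, *Peg3*, *Grb10*, *Ndn*, *Snrpn*, *Mest* and *Plagl1*, taken by symbol from the 32285 genes counted in embryonic mouse brain cells. All 10 were detected in both libraries and passed the filter on low counts. Cells came from cerebral cortices of E16.5 mouse embryos (E, embryonic day) whose genotype is labelled wild type (WT) and whose titles carry the word EomesDot, which the labels do not explain. The methods give C57BL/6J as the strain background. There were 2 libraries in 1 group. The study used such libraries to predict signals that SST+ interneurons may pass to cortical progenitors. No treated or mutant group was compared here, so all comparisons lie between cell types of the same libraries, and how embryos were divided among the libraries was not stated, although the study lists more E16.5 embryos for these predictions than there are libraries here.

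An imprinted gene is read mainly from the copy inherited from one parent, because the parental copies carry different methylation marks, set in the egg or sperm. *Igf2*, *Dlk1*, *Peg3*, *Ndn*, *Snrpn*, *Mest* and *Plagl1* are read from the paternal copy and *H19* and *Meg3* from the maternal copy. *Grb10* is maternal in most tissues and paternal in neurons. Many of these genes act on embryonic growth, and *Igf2* is known to escape imprinting in the choroid plexus and meninges. UMI counts do not resolve parental copies, so every value below is the sum of both.

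On the GRCm38.p6 assembly, *Igf2* (chr7:142650768-142666816) and *H19* (chr7:142575530-142578146) lie side by side on chromosome 7, and *Dlk1* (chr12:109452485-109463336) and *Meg3* (chr12:109540996-109571729) lie side by side on chromosome 12. *Peg3* (chr7:6703892-6730462), *Ndn* (chr7:62348277-62349928) and *Snrpn* (chr7:59982495-60450177) are also on chromosome 7. *Mest* (chr6:30733506-30748466), *Plagl1* (chr10:13090832-13131694) and *Grb10* (chr11:11930499-12037428) are on chromosomes of their own. Reads of overlapping transcripts may be split between genes or left uncounted at these loci (*Snrpn* with *Snurf* and *Snhg14*, *Peg3* with *Usp29*), so their values are uncertain to that extent. No *Snurf* UMI was counted in the meningeal, vascular and neural types compared below.

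ZFP57 is a zinc finger protein that keeps the methylation mark on imprinted loci and binds a methylated 6-base motif, TGCCGC. RefSeq start sites were matched for 9 of the 10 genes, with 19 start sites in all. The motif, searched on both strands in the 250 bases before each start, was present before 4 of the 19 starts, of *Mest* (2 starts 3 bases apart), *Plagl1* and *Meg3*. It was present before 8.68% of the 32851 start sites in the table. The upstream letters of these 3 genes are shown because they hold the motif. All are on the plus strand of GRCm38.p6, and the capitals mark the motif, which lies on the opposite strand and so reads as its reverse complement. They are chr6:30737800-30738049 for *Mest*, chr10:13090582-13090831 for *Plagl1* and chr12:109540746-109540995 for *Meg3*. A match describes the letters and not the binding of a factor.
Mest: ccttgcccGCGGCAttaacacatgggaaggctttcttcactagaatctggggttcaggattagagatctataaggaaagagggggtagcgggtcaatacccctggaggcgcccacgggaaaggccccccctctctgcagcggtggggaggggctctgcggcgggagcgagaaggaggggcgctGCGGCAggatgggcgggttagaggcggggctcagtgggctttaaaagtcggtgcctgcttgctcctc
Plagl1: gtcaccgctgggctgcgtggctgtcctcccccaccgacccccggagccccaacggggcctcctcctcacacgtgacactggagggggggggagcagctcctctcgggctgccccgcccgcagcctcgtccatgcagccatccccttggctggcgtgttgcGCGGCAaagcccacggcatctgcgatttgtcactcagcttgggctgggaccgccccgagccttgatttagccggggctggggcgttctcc
Meg3: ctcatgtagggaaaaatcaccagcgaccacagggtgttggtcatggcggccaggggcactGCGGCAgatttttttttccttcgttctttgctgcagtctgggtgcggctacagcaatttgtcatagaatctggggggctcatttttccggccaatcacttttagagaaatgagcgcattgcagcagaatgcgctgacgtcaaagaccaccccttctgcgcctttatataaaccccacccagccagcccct

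Cells with 1500 to 60000 UMIs and under 10% mitochondrial UMIs were kept, which left 5966 cells (median 5706 UMIs) in replicate 1 and 10247 cells (median 4938 UMIs) in replicate 2. Cells were assigned to types by marker genes that do not include the 10 genes, and 8909 of the 16213 cells passed exactly 1 of 14 gates. The types are called by the marker list they passed, as "-like" cells. Every gate had between 2 and 7 of its own markers among its 10 leading genes and at most 1 of another list. Replicates 1 and 2 held 235 and 393 radial glia-like, 198 and 293 intermediate progenitor-like and 1877 and 3019 excitatory neuron-like cells. They held 35 and 86 meningeal fibroblast-like, 41 and 63 mural-like (the contractile cells around vessels) and 43 and 94 endothelial-like cells. Striatal neuron-like cells, which the label cerebral cortex does not name, numbered 168 and 223. Choroid plexus-like cells numbered 2 and 11, too few to be tested. The libraries shared 40 cell barcodes. Values are given as CPM, the UMIs of a gene per 1000000 UMIs summed over the cells of a type in a library.

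**Figure D1:**
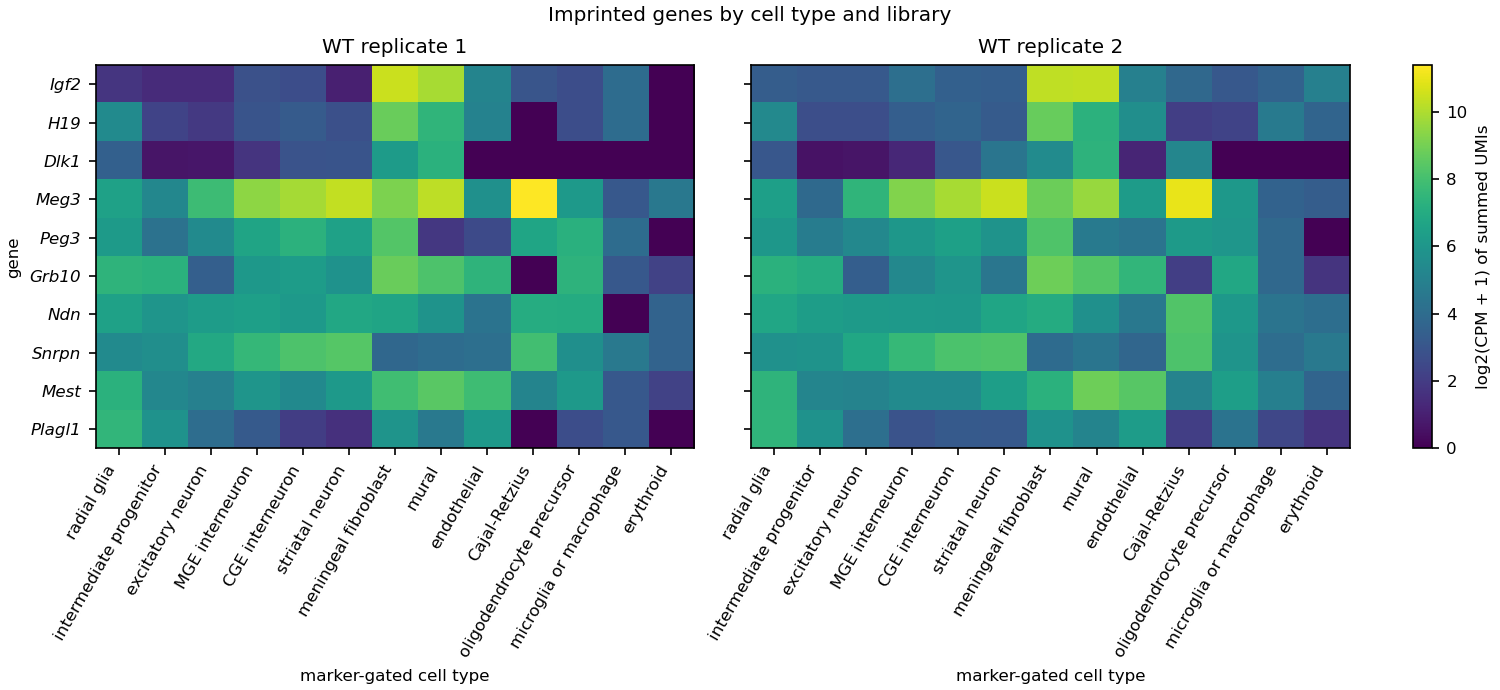
Level of the 10 imprinted genes, as log2(CPM + 1) by colour, in 13 marker-gated cell types (columns) of WT replicate 1 (left) and replicate 2 (right). *Igf2* and *H19* are brightest in meningeal fibroblast-like and mural-like cells, *Meg3* in Cajal-Retzius-like cells and *Snrpn* in striatal neuron-like cells, in both libraries.

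Meningeal fibroblast-like, mural-like and endothelial-like cells together (meningeal and vascular types) had higher *Igf2*, *H19*, *Dlk1*, *Meg3*, *Grb10*, *Mest* and *Plagl1* than 6 neural types (radial glia-like, intermediate progenitor-like, excitatory neuron-like, MGE and CGE interneuron-like and striatal neuron-like cells), and lower *Ndn* and *Snrpn*, on the average of log values over types. For *Meg3* the direction turned on that average, since its mean CPM was 522.7 in the meningeal and vascular types and 544.9 in the neural types. For *Ndn* the lower value came from mural-like cells (56.5 and 52.1 CPM) and endothelial-like cells (19.5 and 22.6 CPM), and fibroblast-like cells were at 100.5 and 128.9 CPM. *Plagl1* was highest in a neural type (radial glia-like cells), and *Dlk1* in endothelial-like cells was below most neural types. Of the 10 genes, 9 passed the test (edgeR's quasi-likelihood test, Benjamini-Hochberg adjusted p under 0.05 over 15899 genes), 7 of them higher and 2 lower. Of all genes tested, 51.2% passed in either direction, 21.8% higher and 29.5% lower. The median log2 fold change was 1.96 over the 10 genes and -0.29 over all genes. With cells thinned to 1500 UMIs, 5 of the 10 genes passed, and *Dlk1*, *Meg3*, *Ndn* and *Plagl1* did not. Every difference below is a log2 fold change with an approximate standard error (SE), its absolute value divided by the square root of the test's F statistic. Adjusted p-values are from the same edgeR test on summed counts of 2 libraries.

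*Igf2* encodes insulin-like growth factor 2, a secreted growth factor of the fetus. Its level was 1413 and 1271 CPM in the meningeal fibroblast-like cells of replicates 1 and 2 and 950.4 and 1306 CPM in mural-like cells. It was 34.1 and 30.1 CPM in endothelial-like cells, and in the 6 neural types it lay between 0.98 and 6.05 CPM in replicate 1 and between 8.11 and 16.7 CPM in replicate 2. The fibroblast-like and mural-like ranges overlapped, and both stood apart from all other tested types. Against the neural types, the meningeal and vascular types were higher by 5.84 ± 0.33 (SE, adjusted p = 2.99e-25), with 6.66 in replicate 1 alone and 5.08 in replicate 2 alone. At least 1 *Igf2* UMI was found in 34 of 35 and 84 of 86 fibroblast-like cells and in 41 of 41 and 59 of 63 mural-like cells. It was found in 4 of 43 and 7 of 94 endothelial-like cells, so the endothelial-like level rests on few cells. The cell with the most *Igf2* held 11 of the 14 UMIs in replicate 1 and 8 of the 24 UMIs in replicate 2. The median fibroblast-like cell held 14 and 10 *Igf2* UMIs and the median mural-like cell 7 and 6. In erythroid-like cells, which serve here as a type that should lack the gene, *Igf2* was found in 0 of 60 and 11 of 88 cells, at median depths of 4190.5 and 4650 UMIs against 12117 and 9982 in fibroblast-like cells. With each cell thinned to 1500 UMIs, the mean share of cells with an *Igf2* UMI was 68.1% in fibroblast-like, 65.04% in mural-like and 4.0% in erythroid-like cells. Globin genes led the erythroid-like cells, whose TMM scaling factors were 0.219 and 0.187, against 1.01 to 1.52 in the other types. Fewer of their UMIs come from other genes, so depth is not matched there and the background share may be too low.

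Low *Igf2* values in neural cells were read beside 2 measures of free RNA. *Ttr*, the transthyretin gene that marks choroid plexus, lay between 0 and 4.25 CPM in the neural types of replicate 1 and between 29.6 and 57.3 CPM in those of replicate 2, the library with more choroid plexus-like cells. The summed tracers of meningeal fibroblasts (*Col3a1*, *Lum*, *Dcn*, *Mgp* and *Ogn*) were 4.25 CPM in the excitatory neuron-like cells of replicate 1 and 13.7 CPM in those of replicate 2. All 6 neural types had more *Igf2* in replicate 2. The part of free RNA in these low values was not tested. *Igf2* in mural-like cells came to 3.36 and 1.94 UMIs per tracer UMI, against 0.296 and 0.256 in fibroblast-like cells themselves. Of the neural types, excitatory neuron-like cells (0.391 and 0.596) and MGE interneuron-like cells (0.667 and 0.866) also exceeded the fibroblast-like ratio of their library in both replicates, and radial glia-like cells (0.0538 and 0.167) lay below it in both. Intermediate progenitor-like (0.25 and 0.37), CGE interneuron-like (0.278 and 0.545) and striatal neuron-like cells (0.0588 and 0.387) lay below it in replicate 1 and above it in replicate 2.

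*H19* is a noncoding RNA read from the same enhancers as *Igf2*. Its level was 434.7 and 429.3 CPM in fibroblast-like cells, 174.7 and 158.5 CPM in mural-like cells and 31.7 and 48.9 CPM in endothelial-like cells. The endothelial-like level rests on few cells, since all 13 UMIs of replicate 1 came from 1 of 43 cells, and in replicate 2 10 of 94 cells held 39 UMIs, 17 of them in 1 cell. Among the neural types it was highest in radial glia-like cells, at 42.5 and 39.6 CPM, and no more than 11.8 CPM in any other. The meningeal and vascular types were higher than the neural types by 4.06 ± 0.18 (adjusted p = 3.61e-30). Across the 13 types, the log2(CPM + 1) values of *H19* and *Igf2* had a Pearson correlation of 0.845 in replicate 1 and 0.86 in replicate 2, a description over types that share libraries.

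*H19* and *Igf2* UMIs were also counted cell by cell. In replicate 1, 44 of 235 radial glia-like cells held *H19* UMIs and no *Igf2*, 4 held *Igf2* alone and 1 held both. In replicate 2 these numbers were 51, 15 and 4 of 393 cells. For background, *H19* was found in 0 of 60 and 5 of 88 erythroid-like cells, and *H19* alone in 31 of 1877 and 102 of 3019 excitatory neuron-like cells. Median depths were 8529 and 6087 UMIs in radial glia-like, 7398 and 6130 in excitatory neuron-like and 4190.5 and 4650 in erythroid-like cells. With each cell thinned to 1500 UMIs, the mean share of cells with an *H19* UMI was 4.63% in radial glia-like, 0.657% in excitatory neuron-like and 0.568% in erythroid-like cells. The erythroid-like share has the globin limit given for *Igf2*. In fibroblast-like cells the order was the other way, with 0 cells holding *H19* alone in either library and 13 of 35 and 38 of 86 holding *Igf2* alone. *H19* per fibroblast-tracer UMI was 0.968 and 0.722 in radial glia-like cells against 0.0909 and 0.0865 in fibroblast-like cells, and the other 5 neural types also exceeded the fibroblast-like ratio, at 0.261 to 0.75. Among the tracers, *Ogn* itself stood at 39.6 and 38.5 CPM in radial glia-like cells. Without *Ogn*, a setting chosen after seeing the data, the radial glia-like cells held 9 and 43 tracer UMIs, and their *Igf2* came to 0.556 and 0.558 UMIs per tracer UMI, above the 0.32 and 0.274 of fibroblast-like cells. The position of radial glia-like *Igf2* against the fibroblast-like ratio therefore turned with that tracer.

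**Figure D2:**
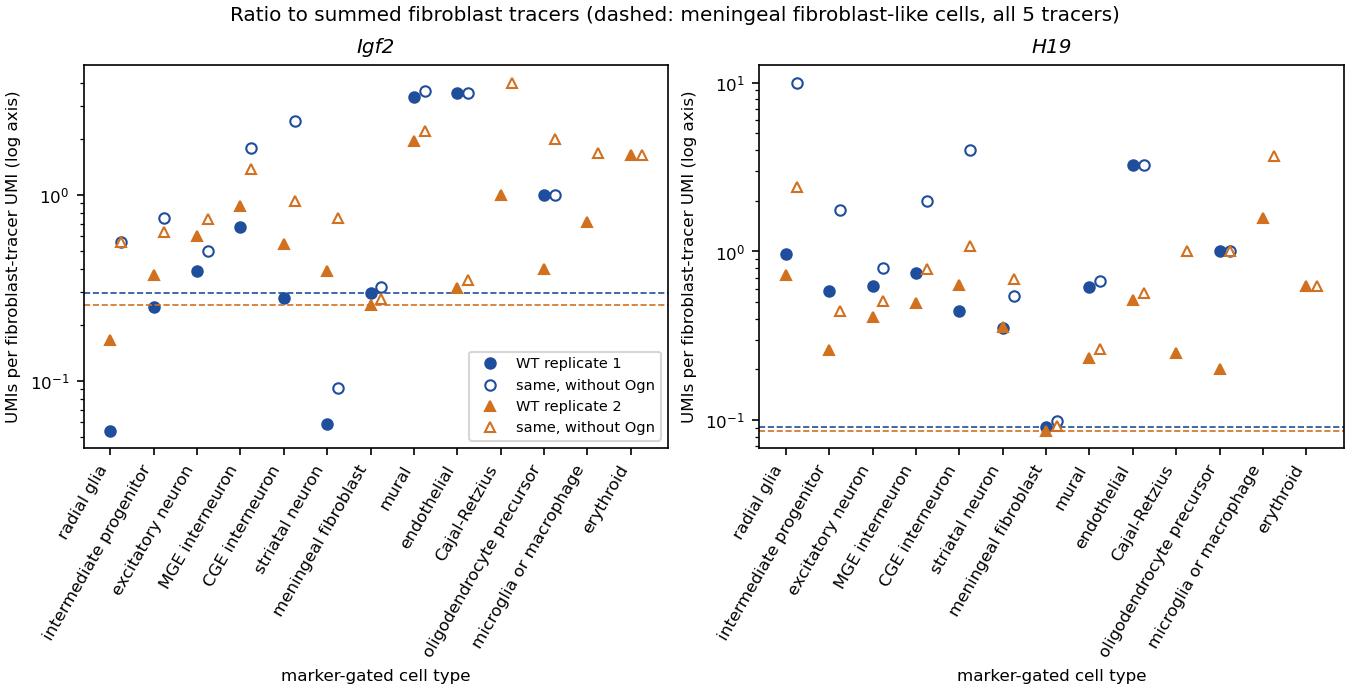
UMIs of *Igf2* (left) and *H19* (right) per UMI of the summed fibroblast tracers, on a log axis, by cell type (circles replicate 1, triangles replicate 2). Dashed lines are the ratios in meningeal fibroblast-like cells of each library, at 0.296 and 0.256 for *Igf2* and 0.0909 and 0.0865 for *H19*; mural-like cells lie above the lines in both panels. Open points, shifted to the right, leave out *Ogn*, and with it left out radial glia-like *Igf2* moves from below the lines to above them. Points without tracer UMIs or without UMIs of the gene are left out.

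*Dlk1* encodes a transmembrane protein of the Notch ligand family that restrains differentiation. It was highest in mural-like cells, at 154.1 and 163.0 CPM, followed by fibroblast-like cells at 74.3 and 43.7 CPM. Endothelial-like cells held 0 UMIs in replicate 1 and 1 UMI in replicate 2. The ratio of mural-like to endothelial-like cells over both libraries was 192, with an exact 95% counting interval of 33.8 to 7631. In Cajal-Retzius-like cells the libraries differed, with 0 UMIs in 21 cells of replicate 1 and 11 UMIs in 34 cells of replicate 2, which came from 2 cells. No *Dlk1* UMI was found in oligodendrocyte precursor-like, microglia- or macrophage-like or erythroid-like cells, where 3 UMIs would be 6.66 to 23.1 CPM.

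*Meg3*, the maternal noncoding RNA of the same locus, had another order. It was 2673 and 2032 CPM in Cajal-Retzius-like cells, 1286 and 1427 CPM in striatal neuron-like cells and 1212 and 781 CPM in mural-like cells. It was 931.2 and 958.3 CPM in CGE interneuron-like cells and 37.7 and 13.8 CPM in intermediate progenitor-like cells. Cajal-Retzius-like cells stood above striatal neuron-like cells, and these above mural-like cells, whose range overlapped that of CGE interneuron-like cells. Endothelial-like cells, at 51.1 and 74.0 CPM, were below mural-like cells by a log2 fold change of -3.85 ± 0.22 (adjusted p = 1.21e-23). The correlation of *Meg3* with *Dlk1* over the 13 types was 0.517 and 0.761 in the 2 libraries.

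**Figure D3:**
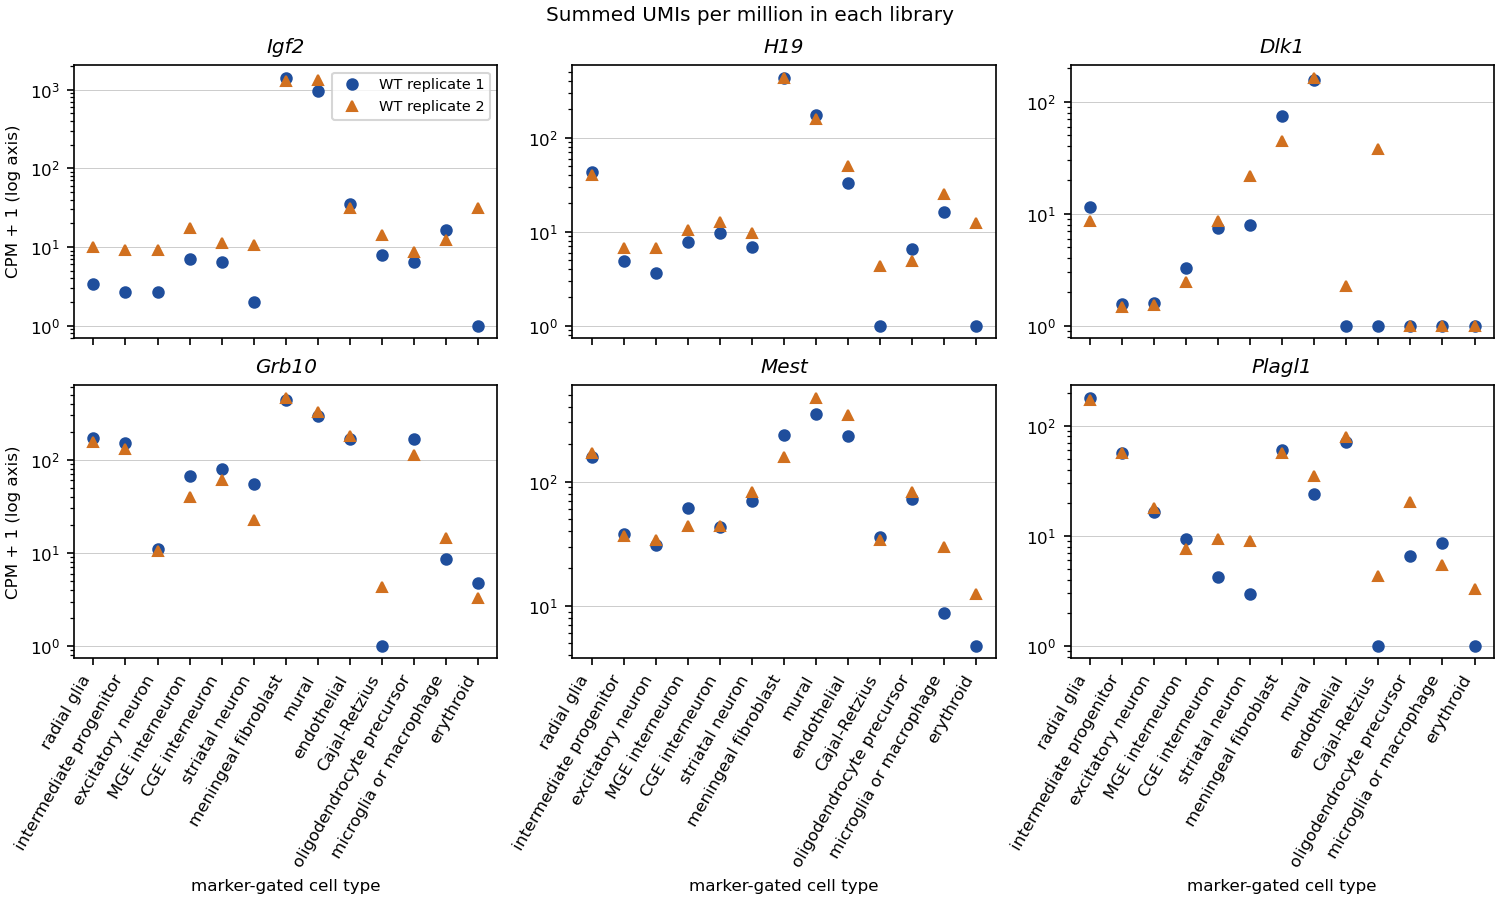
Level of 6 of the genes as CPM + 1 on a log axis in 13 cell types, with circles for WT replicate 1 and triangles for WT replicate 2. *Igf2* lies between 950.4 and 1413 CPM in fibroblast-like and mural-like cells, and *Plagl1* is highest in radial glia-like cells in both libraries.

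Within the meningeal and vascular types the genes separated the 3 cell types from each other. Fibroblast-like cells were higher than mural-like cells in *H19*, *Peg3*, *Grb10*, *Ndn* and *Plagl1* and lower in *Dlk1*, *Meg3* and *Mest*, so 8 of the 10 genes passed. Of all genes, 12.5% passed, 7.26% higher and 5.25% lower. *Peg3*, a zinc finger protein linked to maternal behaviour and growth, was 321.1 and 302.6 CPM in fibroblast-like cells, 2.57 and 24.9 CPM in mural-like cells and 4.87 and 20.1 CPM in endothelial-like cells. The fibroblast-like level stood apart from every other tested type and exceeded the mural-like level by 4.56 ± 0.35 (adjusted p = 2.33e-17). Mural-like cells of replicate 1 held 1 *Peg3* UMI, and the log2 ratio was 6.50 in replicate 1 alone and 3.55 in replicate 2 alone. With cells thinned to 1500 UMIs, 4 of the 10 genes passed between these types, and the calls of *Dlk1*, *Grb10*, *Ndn* and *Mest* were lost. DESeq2 also lost those of *Dlk1* and *Grb10*, and that of *Plagl1* was lost under library totals, another count filter and without the 5% of cells with the most UMIs. *Igf2* did not pass between fibroblast-like and mural-like cells (0.38 ± 0.17, adjusted p = 0.162), and its direction differed between the libraries.

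*Grb10* encodes an adaptor that binds the insulin and IGF1 receptors and dampens their signal. Its level was 439.0 and 462.4 CPM in fibroblast-like, 295.4 and 323.7 CPM in mural-like and 168.0 and 180.7 CPM in endothelial-like cells. Radial glia-like cells, at 170.4 and 152.8 CPM, overlapped the endothelial-like cells, and excitatory neuron-like cells were at 9.96 and 9.42 CPM. *Mest*, an enzyme of the alpha/beta hydrolase fold, was 351.9 and 470.9 CPM in mural-like, 231.4 and 341.4 CPM in endothelial-like and 235.9 and 155.5 CPM in fibroblast-like cells. Mural-like cells had the highest *Mest* level of the tested types in both libraries.

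Against endothelial-like cells, fibroblast-like cells were higher in 7 of the genes and lower in *Mest*, so 8 passed beside 20% of all genes (11% higher and 9.06% lower). *Igf2* was higher by 5.61 ± 0.28 (adjusted p = 9.3e-27) and *Ndn*, a MAGE family protein of differentiating neurons, by 2.55 ± 0.34 (adjusted p = 6.41e-09). The *Mest* call rested on replicate 2. Its log2 fold change was -0.58 ± 0.18 (adjusted p = 0.0143), but the ratio was 0.03 in replicate 1 alone and -1.13 in replicate 2 alone, and the call was lost under DESeq2 and with thinned cells. Endothelial-like cells were lower than mural-like cells in *Igf2*, *H19*, *Dlk1*, *Meg3*, *Grb10* and *Ndn* and higher in *Plagl1*. These 7 calls stood beside 14.6% of all genes, 7.33% higher and 7.29% lower. Thinning ended the calls of *Grb10* and *Ndn* here, and leaving out the 5% of cells with the most UMIs also ended that of *Ndn*. *Plagl1* was 70.6 and 77.8 CPM in endothelial-like and 23.1 and 34.0 CPM in mural-like cells, a difference of 1.40 ± 0.35 (adjusted p = 0.00172).

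**Figure D4:**
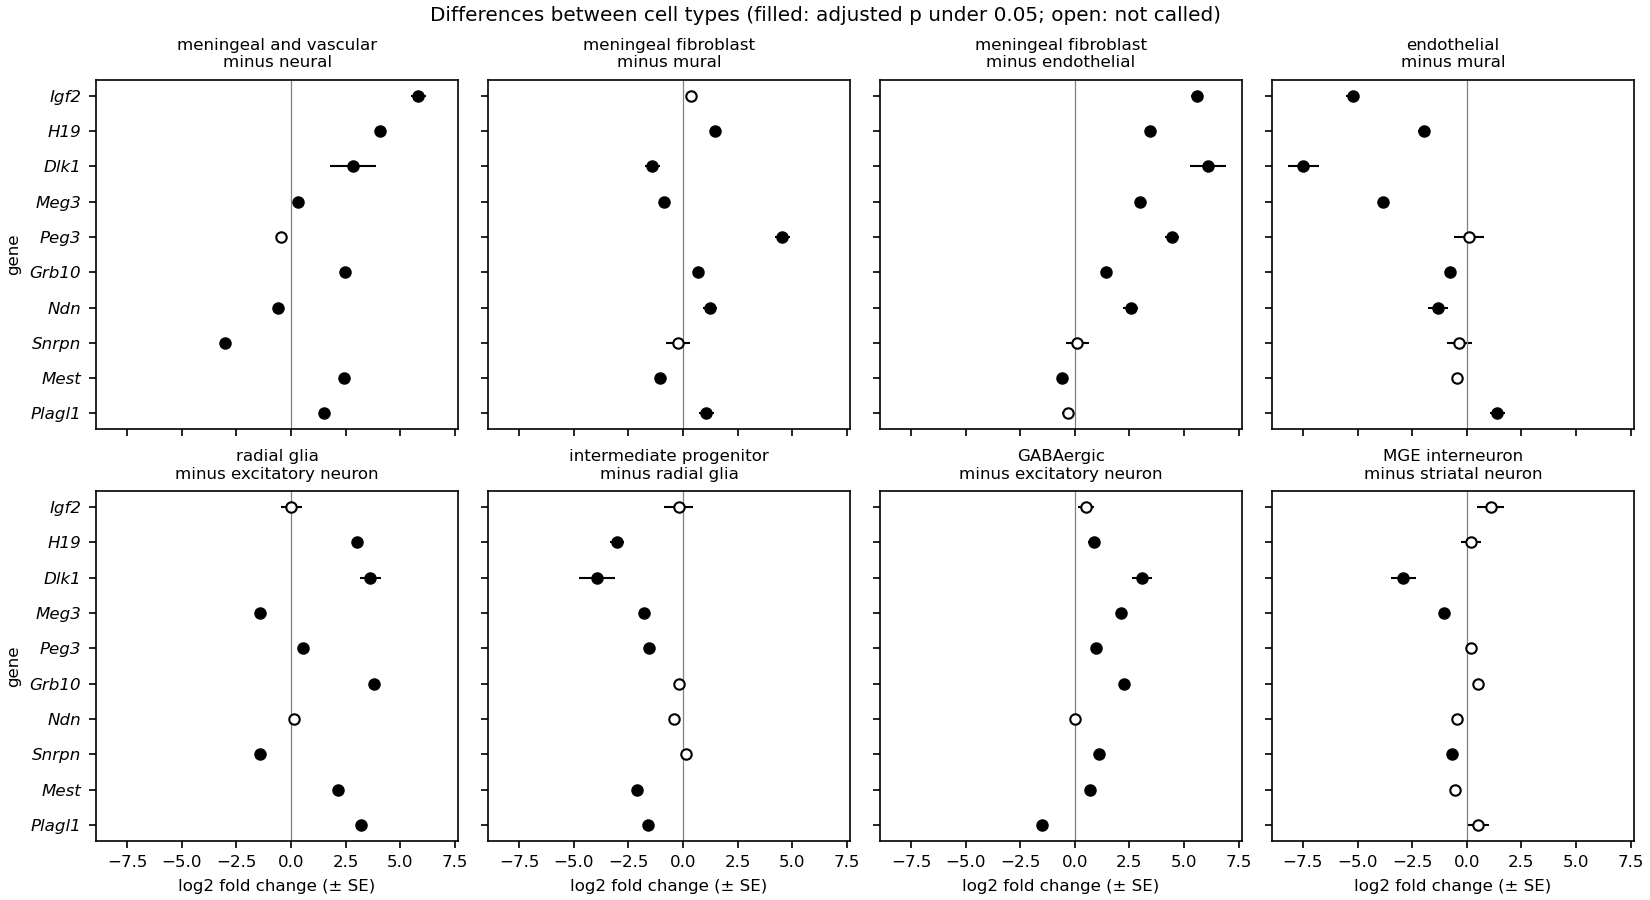
Log2 fold change of each gene with its SE in the 8 comparisons between cell types, from the edgeR fit over 2 libraries. Filled points passed an adjusted p of 0.05 and open points did not; *Igf2* is at 5.84 in the meningeal and vascular types against the neural types and open in all 4 comparisons among neural types.

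Radial glia are the stem cells of the cortex, intermediate progenitors their dividing offspring, and excitatory neurons their postmitotic products. Radial glia-like cells were higher than excitatory neuron-like cells in *H19*, *Dlk1*, *Peg3*, *Grb10*, *Mest* and *Plagl1* and lower in *Meg3* and *Snrpn*. Thus 8 of the 10 genes passed, beside 53.6% of all genes (23.7% higher and 30% lower). *Plagl1*, a zinc finger transcription factor, was 178.4 and 171.1 CPM in radial glia-like cells, above every other tested type, and 15.6 and 16.9 CPM in excitatory neuron-like cells (3.19 ± 0.13, adjusted p = 3.14e-32). At least 1 *Plagl1* UMI was found in 149 of 235 and 212 of 393 radial glia-like cells, in 176 of 1877 and 253 of 3019 excitatory neuron-like cells and, for background, in 0 of 60 and 1 of 88 erythroid-like cells, at the median depths given for *H19*. With each cell thinned to 1500 UMIs, the mean share with a *Plagl1* UMI was 19.4% in radial glia-like, 1.92% in excitatory neuron-like and 0.568% in erythroid-like cells. The erythroid-like share again has the globin limit given for *Igf2*. *Grb10* differed by 3.82 ± 0.16 (adjusted p = 8.41e-33), *H19* by 3.02 ± 0.21 (adjusted p = 1.01e-20) and *Mest* by 2.14 ± 0.14 (adjusted p = 6.02e-22). *Igf2* did not pass (0.01 ± 0.48, adjusted p = 0.99). Under library totals in place of TMM factors the median of all genes moved from -0.17 to 0.06 and the share of higher genes among those called from 44.1% to 57.5%, so small differences such as that of *Peg3* (0.53 ± 0.16) are read against that shift. The *Peg3* call was lost under DESeq2, with thinned cells and under a limit of 5% mitochondrial UMIs.

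Intermediate progenitor-like cells were lower than radial glia-like cells in 6 of the genes and higher in none, beside 24.6% of all genes called in either direction, 10.2% higher and 14.4% lower. *Mest* fell from 155.8 and 167.3 CPM in radial glia-like cells to 37.1 and 35.8 CPM (-2.11 ± 0.18, adjusted p = 9.85e-16). *Plagl1* was at 55.4 and 55.3 CPM in intermediate progenitor-like cells (-1.62 ± 0.15, adjusted p = 2.46e-14), and *H19* at 3.88 and 5.72 CPM (-3.02 ± 0.33, adjusted p = 6.2e-12). *Dlk1*, *Meg3* and *Peg3* were the other genes that passed, and *Dlk1* did not with thinned cells. *Grb10* stood at 151.3 and 131.1 CPM and did not pass (-0.16 ± 0.15, adjusted p = 0.486).

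Among neurons, *Snrpn*, which encodes a spliceosomal protein, was 335.0 and 300.7 CPM in striatal neuron-like, 296.8 and 287.1 CPM in CGE interneuron-like, 193.1 and 197.5 CPM in MGE interneuron-like and 114.9 and 108.4 CPM in excitatory neuron-like cells. The CGE interneuron-like range lay below the striatal neuron-like range and overlapped that of Cajal-Retzius-like cells (242.3 and 298.4 CPM). In the meningeal and vascular types *Snrpn* was between 12.6 and 20.4 CPM, lower than in the neural types by a log2 fold change of -3.03 ± 0.17 (adjusted p = 1.39e-25). The GABAergic types (MGE and CGE interneuron-like and striatal neuron-like cells) were higher than excitatory neuron-like cells in 7 genes and lower in *Plagl1*, so 8 passed beside 31.5% of all genes (11.2% higher and 20.3% lower). *Meg3* was higher by 2.13 ± 0.12 (adjusted p = 1.45e-24), *Grb10* by 2.23 ± 0.16 (adjusted p = 9.68e-20) and *Snrpn* by 1.10 ± 0.10 (adjusted p = 1.3e-15). The calls of *H19* and *Dlk1* were lost with thinned cells, and that of *H19* also without the 5% of cells with the most UMIs. In this comparison library totals moved the median of all genes from -0.13 to -0.01 and the share of higher genes among those called from 35.7% to 52.8%.

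MGE interneuron-like cells were lower than striatal neuron-like cells in *Dlk1*, *Meg3* and *Snrpn*, and the other 7 genes did not pass, beside 9.55% of all genes called (5.23% higher and 4.32% lower). *Meg3* was 706.9 and 606.6 CPM in MGE interneuron-like cells, below both striatal neuron-like values (-1.03 ± 0.14, adjusted p = 7.37e-09). *Dlk1* was 2.27 and 1.44 CPM in MGE interneuron-like cells and 6.88 and 20.7 CPM in striatal neuron-like cells (-2.92 ± 0.57, adjusted p = 8.63e-05), a call that was lost with thinned cells. *Ndn* lay between 65.7 and 112 CPM over the neuron types other than Cajal-Retzius-like cells, where it was 131.6 and 314.9 CPM.

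A wider list of 32 other imprinted genes, 26 of them tested, placed the 10 genes beside their class. In meningeal and vascular types against neural types, 4 of the 26 were higher and 8 lower, with a median log2 fold change of -0.36, beside 21.8% higher and 29.5% lower of all genes. *Airn*, the noncoding RNA antisense to *Igf2r*, was higher by 3.68 ± 0.11 (adjusted p = 4.64e-41), at 760.3 and 776.5 CPM in mural-like cells. The setting for strand in the counting was not given, so its reads and those of *Igf2r* may not be fully told apart. *Usp29*, the neighbour of *Peg3*, was lower (adjusted p = 1.02e-21), at 17.5 and 23.4 CPM in fibroblast-like cells against 142.5 and 129.8 CPM in excitatory neuron-like cells. It had 0 UMIs in mural-like cells, so fibroblast-like cells were at least 5.95-fold higher in *Usp29* when 3 counts are taken as the floor over both libraries. *Cdkn1c*, which encodes a cell cycle inhibitor, was 1584 and 1454 CPM in fibroblast-like cells and 200.4 and 278.4 CPM in mural-like cells (2.77 ± 0.17, adjusted p = 1.45e-22). *Cdkn1c* was also higher in intermediate progenitor-like than in radial glia-like cells (1.70 ± 0.25, adjusted p = 9.49e-08), where 4 of the 26 genes were higher and 5 lower, beside 10.2% and 14.4% of all genes. In radial glia-like against excitatory neuron-like cells 7 were higher and 14 lower, beside 23.7% and 30% of all genes, with a median of -0.95 against 1.33 for the 10 genes.

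The other genes of the wider list that the naming rule picked are given by their level in replicates 1 and 2, and each passed the test in the comparison named. *Nap1l5* was lower in the meningeal and vascular types than in the neural types (-3.17 ± 0.41), at 10.9 and 7.46 CPM in fibroblast-like against 26.2 and 27.0 CPM in excitatory neuron-like cells. *Zim1*, a zinc finger gene near *Peg3*, was 21.8 and 19.2 CPM in fibroblast-like cells, against 1 UMI over both libraries in endothelial-like cells and 0 in mural-like cells, at least 5.55-fold higher than in the latter. *Asb4* was 36.5 and 28.9 CPM in endothelial-like cells, against 1 UMI in fibroblast-like cells and 0 in mural-like cells, at least 8.72-fold higher than in the latter. The endothelial-like cells were the low side for 2 transcripts of the *Dlk1* and *Meg3* locus. *Mirg* was 66.8 and 22.6 CPM in mural-like and 17.5 and 19.2 CPM in fibroblast-like cells, against 1 UMI in endothelial-like cells, and *Rtl1* was 12.8 and 9.06 CPM in mural-like cells against 0 UMIs in endothelial-like cells, at least 4.36-fold higher.

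Among neural types, *Peg12* was higher in radial glia-like than in excitatory neuron-like cells (13.2 and 14.1 against 0.531 and 0.589 CPM). *Peg13* was lower there (5.19 and 7.24 against 40.7 and 39.0 CPM), as was *Usp29* (24.5 and 24.0 CPM in radial glia-like cells). *Peg10*, a gene derived from a retrotransposon, was lower in intermediate progenitor-like (4.99 and 2.38 CPM) than in radial glia-like cells (14.2 and 17.2 CPM), as was *Rian* (12.2 and 2.86 against 29.3 and 19.1 CPM). The GABAergic types were higher than excitatory neuron-like cells in *Peg10* (2.60 ± 0.26), *Mirg* (2.01 ± 0.25) and *Rtl1* (1.91 ± 0.37). MGE interneuron-like cells were lower than striatal neuron-like cells in *Peg10* (12.1 and 6.9 against 30.4 and 31.0 CPM), *Zdbf2* (26.8 and 20.4 against 40.3 and 78.0 CPM) and *Rian* (121.3 and 84.0 against 244.6 and 194.9 CPM).

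The IGF list holds 14 genes of ligands, receptors, binding proteins and mediators of IGF signalling, and all 14 were tested. In meningeal and vascular types against neural types 7 were higher and 4 lower, beside 21.8% and 29.5% of all genes. Among the receptors, *Igf1r* was 640.5 and 681.5 CPM in endothelial-like cells and 87.3 and 131.3 CPM in mural-like cells (2.61 ± 0.20, adjusted p = 5.23e-18). *Igf2r*, the receptor that clears IGF2 and is itself read from the maternal copy, was 220.9 and 244.5 CPM in mural-like cells and 33.2 to 35.4 CPM in radial glia-like cells. The binding proteins parted by cell type. *Igfbp2* was 2641 and 2615 CPM in fibroblast-like cells and 51.4 and 110.9 CPM in mural-like cells (5.11 ± 0.19, adjusted p = 7.45e-33). *Igfbp7* was 19.7 and 33.0 CPM in fibroblast-like cells against 1261 and 1107 CPM in mural-like cells (-5.27 ± 0.20, adjusted p = 2.09e-32). *Igfbp5* was 153.4 and 156.6 CPM in radial glia-like cells and 74.3 and 52.5 CPM in intermediate progenitor-like cells (-1.27 ± 0.17, adjusted p = 5.11e-09).

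The remaining genes that the rule picked from the IGF list passed the test in the comparisons named. *Igfbp7* (6.48 ± 0.24) and *Igfbp4* (3.66 ± 0.13) were higher in the meningeal and vascular types than in the neural types. *Igf1*, the other ligand, was also higher there (2.53 ± 1.06, adjusted p = 0.0404), at 32.8 and 28.8 CPM in fibroblast-like cells, against 1 UMI over both libraries in mural-like cells. *Igfbp3* was 104.7 and 116.7 CPM in endothelial-like cells, higher than in fibroblast-like cells (4.37 and 2.13 CPM) and in mural-like cells, which held 2 UMIs in replicate 1 and 0 in replicate 2. *Igfbp7* was higher in endothelial-like cells (1344 and 1415 CPM) than in fibroblast-like cells. *Irs1*, an adaptor of the receptors, was 104.8 and 118.3 CPM in fibroblast-like and 36.0 and 31.7 CPM in mural-like cells, both higher than in endothelial-like cells, which held 0 and 2 UMIs.

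Among neural types, radial glia-like cells were higher than excitatory neuron-like cells in *Igfbp5* (4.70 ± 0.17) and *Irs1* (1.56 ± 0.15) and lower in *Igfbp3* (-1.75 ± 0.37). Intermediate progenitor-like cells were lower than radial glia-like cells in *Irs2* (-1.16 ± 0.25) and *Igfbp2* (-0.63 ± 0.15). The GABAergic types were lower than excitatory neuron-like cells in *Igfbp3* (-2.59 ± 0.34) and *Igfbp2* (-1.39 ± 0.13) and higher in *Igfbp5* (1.17 ± 0.24). MGE interneuron-like cells were higher than striatal neuron-like cells in *Igfbp4* (1.38 ± 0.25) and in *Igf2bp1* (1.24 ± 0.39), which encodes an RNA-binding protein, and lower in *Irs1* (-1.36 ± 0.25).

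The genes whose log2(CPM + 1) followed each imprinted gene most closely over the 13 types were taken by the lower Pearson correlation of the 2 libraries among 13159 genes, with the gate markers left out. For *Igf2* they were *Postn*, *A4galt* and *Anpep*, at 0.936, 0.935 and 0.933. For *Meg3* the closest was *Rian*, another noncoding RNA of its locus, at 0.94. For *Snrpn* they were *Celf4*, *Pdzd4* and *Snhg14*, at 0.964, 0.937 and 0.931, and *Snhg14* overlaps the *Snrpn* locus. For *Mest* the third was *Igf2r*, at 0.907. *Ttc23* was among the closest 3 for both *Grb10* (0.89) and *Plagl1* (0.865). These values describe 13 types of the same libraries.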

How the data were processed

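The authors deposited UMI counts for each gene and cell barcode of 2 libraries (10x 3' v3.1), unnormalized and made with Cell Ranger, version 7.1.0 per the file headers and 7.0.0 per the submitters' processing notes, on mm10. Whether introns were counted is not given in the sources used here. Depth was 46398156 UMIs over 9049 barcodes (replicate 1) and 64324236 UMIs over 13556 barcodes (replicate 2), and no sample was left out. Cells passing 2 gates (34 and 46) were left out, and no doublet caller was run. Summed counts of the 13 types that reached 20 cells in both libraries were fitted together in edgeR 4.0.16 (R 4.3.3): TMM factors, at least 10 counts in at least 2 sums, a library block, the quasi-likelihood test, and Benjamini-Hochberg adjustment over all genes. Cells are not replicates. With the library block, p-values measure how far differences between types varied between these 2 libraries, a variation that may be technical. That spread was estimated over all 13 types together (12 residual degrees of freedom). Contrasts of several types average their log values, so they can differ from ratios of mean CPM. Alternatives were DESeq2 1.42.0, library totals, another count filter, no block, a stricter gate, a stricter mitochondrial limit, thinned cells, fewer cells, fewer types and each library alone. Intervals are exact (Clopper-Pearson, 95%) and, like floors of 3 counts, cover counting error only. The genes and lists were chosen with earlier results of these data known. Named genes were all 10 imprinted genes, and from the other lists the 3 called genes per comparison with the largest change, at least 10 CPM on the higher side and the same direction in both libraries; *Igf2r* and *Ttr* were named after their values were seen. The start-site letters are from RefSeq (GRCm38.p6).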

Additional observations from a re-analysis of the deposited data

How the results depend on the processing

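The number of the 10 genes called stayed within 1.5 times that reported under every alternative run except thinning each cell to 1500 UMIs, which gave 5 in place of 9 for the meningeal and vascular types against the neural types and 4 in place of 8 for meningeal fibroblast-like against mural-like cells. Thinning leaves fewer counts and ended 16 gene calls over the 8 comparisons, and leaving out the 5% of cells with the most UMIs ended 3. In the other direction, 13 values passed under an alternative that had not passed as reported. A fit of only the types of a comparison ended 0 calls among the values it tested. It did not test *Dlk1* between MGE interneuron-like cells (6 and 5 UMIs) and striatal neuron-like cells (7 and 26 UMIs). That called gene fell under the count filter there and was counted as not called. The fit gained 5. *Mest* passed in endothelial-like against mural-like and in MGE interneuron-like against striatal neuron-like cells. *Ndn* passed in radial glia-like against excitatory neuron-like, intermediate progenitor-like against radial glia-like and MGE interneuron-like against striatal neuron-like cells. Library totals, the other count filter, leaving out the 5% of cells with the most UMIs and the limit of 5% mitochondrial UMIs gained 2 each. These were all values of *Ndn* or *Mest* in those same comparisons, except for *Peg3* in the meningeal and vascular types against the neural types under the other count filter. Among called genes 1 direction reversed. The log2 fold change of *Mest* between meningeal fibroblast-like and endothelial-like cells was 0.028 without replicate 2 and -1.13 without replicate 1. Values that had not passed, such as *Igf2* between fibroblast-like and mural-like cells, also differed in direction between libraries. DESeq2 with its size factors lost 4 calls, those of *Dlk1* and *Grb10* between fibroblast-like and mural-like cells, *Mest* between fibroblast-like and endothelial-like cells and *Peg3* between radial glia-like and excitatory neuron-like cells. DESeq2's size factors moved the median log2 fold change of all genes from -0.29 to -0.08 in the meningeal and vascular types against the neural types, and the share of higher genes among those called to 55.7% in radial glia-like and 58.8% in GABAergic cells, each against excitatory neuron-like cells. Without the replicate block all 80 tests of a gene in a comparison kept their direction and their side of the threshold. With either library left out there is no residual degree of freedom, so only log2 ratios were computed. These are ratios of CPM + 1 without TMM factors, set against the edgeR log2 fold change. They lay further from it than the SD between the libraries for 28 of the 80 values without replicate 1 and for 34 without replicate 2. These counts therefore include the change of measure. *Dlk1* in radial glia-like against excitatory neuron-like cells was 2.83 and 2.49 in replicates 1 and 2, but 3.63 in edgeR. The limit of 5% mitochondrial UMIs left under 20 cells in the meningeal and vascular types, so their 4 comparisons were not run under it. *Dlk1* in endothelial-like cells rests on 1 UMI.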
